A study of Homo sapiens with 24 samples.

Results

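The genes described here are 8 human genes that detect foreign RNA, pass the signal on, or act against it: DDX58, IFIH1, EIF2AK2, MAVS, IRF3, ADAR, OAS1 and OAS3. They were found by symbol among the 60658 genes of the deposited count tables, and all 8 were present once. RNA was taken from human cells labelled SH-SY5Y, a neuroblastoma line, 48 h after transfection, in a study of 4 ways to deplete ciRS-7 (CDR1as), a circular RNA made antisense to CDR1. The 24 libraries come from 4 setups, and each setup has 3 libraries of ciRS-7 knockdown (KD) and 3 of a non-targeting control (NTC), so that there are 8 groups.

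The agoshRNA cells received an expression vector for a short hairpin, against ciRS-7 in KD and non-targeting in NTC. The gRNA cells received a plasmid encoding CasRx, a nuclease that cuts RNA under the direction of a guide, joined to GFP, and a second plasmid that expressed the guide. The pre-gRNA cells received that CasRx plasmid and a plasmid for the precursor form of the guide. For syn-gRNA, the series title calls the guides chemically synthesised. A lipid reagent carried the plasmids into the cells in every plasmid group, KD and NTC alike. How syn-gRNA and its nuclease were delivered is not given in the sources used here. Nothing in the labels says that the 3 libraries of a group came from separate cultures, so the p-values measure the spread between these libraries, which may be technical. Libraries are named by the letters A, B and C of the deposited columns, which are not tied to the replicate numbers of the labels.

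Cells recognise RNA that is double-stranded, or that carries an unprotected triphosphate end, as a sign of infection. DDX58 (the protein RIG-I) and IFIH1 (the protein MDA5) bind such RNA in the cytoplasm and act through the mitochondrial adaptor MAVS, which leads to activation of the transcription factor IRF3 and to the production of interferon. Interferon in turn raises the transcription of many of the same genes, among them the kinase EIF2AK2 (PKR), the oligoadenylate synthetases OAS1 and OAS3, and a long form of the RNA editor ADAR, through promoter elements known as interferon-stimulated response elements.

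The promoters of the members were searched for the core letters of that element, because a gene that carries them can respond to interferon. The pattern was GAAA followed by GAAAC with 1 or 2 bases of any kind between them, searched on both strands in the 250 bases before and the first 50 bases after each start site in RefSeq (GRCh38.p14). Of the members, 7 had an entry, and DDX58, IFIH1, EIF2AK2, OAS1 and OAS3 held a match, all on the strand of the gene. The matches are shown 5′ to 3′ with 8 flanking bases on each side and the pattern in capitals.
DDX58, chr9:32526382-32526407, minus strand: tgcggaggGAAACGAAACtagcccga
IFIH1, chr2:162318687-162318713, minus strand: agagaatcGAAACAGAAACcaaagtca
EIF2AK2, chr2:37156968-37156994, minus strand: tccaagggGAAAACGAAACtgagaacc
OAS1, chr12:112906937-112906962, plus strand: cttctgagGAAACGAAACcaacagca
OAS3, upstream match, chr12:112938318-112938343, plus strand: gctagaaaGAAACGAAACtgaaagca
OAS3, match near the start, chr12:112938454-112938480, plus strand: ccgggcggGAAAACGAAACcagaaatc
The match in EIF2AK2 spans the start site, from position -6 to position 5, and that in DDX58 lies farthest away, from -203 to -194. No match was found in the single window of MAVS or in the 3 windows of ADAR. The search covered only this exact pattern in these windows, so it does not show that either gene lacks a response element. Among all 35116 promoters of the table, 0.795% held the pattern with a gap of 2 bases, 0.498% that with a gap of 1 base and 1.26% at least 1 of them. The table uses symbols of a later release, in which DDX58 is RIGI. A match is a stretch of letters, and whether a factor bound there was not measured.

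Raw counts are reported with CPM (counts per 1000000 counts of a library) and, to compare genes with each other, RPKM (CPM per kilobase of exon). Total counts per library lay between 10994974 and 16233777, and between 16947 and 18863 genes had at least 10 counts. A count of 3, the limit that a count of 0 allows, stands for 0.185 to 0.273 CPM depending on the library, and covers counting error only. Of 12 markers of noradrenergic neuroblastoma, 4 averaged above 10 CPM (GATA2, at 35.6 CPM, TBX2, HAND1 and CHRNA3) and 6 had at least 10 counts in all libraries, while PHOX2A, DBH, STMN2 and ELAVL4 had at most 5 counts in any library. Of 9 genes of the kidney lineage described in HEK293, a human embryonic kidney line, 7 averaged above 10 CPM, with HOXA9 at 98.2 CPM. On the same list LHX1 averaged 1.57 CPM and PAX8 had at most 1 count in any library. Of 6 myeloid and lymphoid markers 1, CD68, had at least 10 counts in all libraries, 3 had at most 5 counts in any (PTPRC at most 1), and their sum was 4.4 to 11.2 CPM. The summed level of the 12 neuroblastoma markers was 96.0 to 110.4 CPM in the syn-gRNA libraries and 95.2 to 140.5 CPM in those with plasmid guides, and that of the 9 kidney-lineage genes 325.3 to 377.8 CPM and 271.5 to 470.9 CPM. These ranges overlapped between KD and NTC in every setup too. LINC00632, the linear host of the targeted circle, had log2 fold changes (KD over NTC) between -0.24 and 0.22 and CDR1 between -0.39 and -0.22 in the 3 setups where it was tested, with an adjusted p of 1 in each. Poly(A) libraries select against circles, so these counts do not measure the depletion of ciRS-7.

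The 8 genes fell into an abundant set and a nearly silent set. Per length, over the 24 libraries, ADAR averaged 26.4 RPKM ± 7.0 (SD, n = 24), IRF3 10.95 ± 2.23, MAVS 6.96 ± 2.69 and EIF2AK2 3.35 ± 1.42. DDX58 averaged 0.727 RPKM ± 0.376. OAS3 averaged 0.032 RPKM ± 0.023, IFIH1 0.029 ± 0.030 and OAS1 0.002 ± 0.005. The editor, the adaptor, the transcription factor and the kinase were thus measured at 197 to 4610 counts in each library, DDX58 at 16 to 92 counts, and the other 3 at 10 counts or fewer. In RNA from a whole culture, fewer cells that express a gene and less RNA per cell cannot be told apart. Among all genes ranked by mean RPKM, ADAR stood at percentile 96.6 and OAS1 at percentile 29.7. The 5 genes with a promoter match were the 5 lowest of the 7 with an entry.

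IFIH1 (ENSG00000115267.5_2, hg19 chromosome 2, 163123589 to 163175213, minus strand), a sensor of long double-stranded RNA, had 45 counts in the 24 libraries together. It was at 0 in 6 libraries and highest in pre-gRNA NTC, with 5, 0 and 8 counts in libraries A, B and C. The agoshRNA libraries held 1, 3 and 1 counts in KD and 0, 2 and 1 in NTC. The gRNA libraries held 2, 1 and 4 counts in KD and 1, 1 and 5 in NTC. The syn-gRNA libraries were the lowest, with 1, 0 and 1 counts in KD and 0, 0 and 1 in NTC. Pooled over a group, the level ran from 0.023 CPM (exact Poisson 95% interval 0.001 to 0.128) in syn-gRNA NTC to 0.272 CPM (0.145 to 0.465) in pre-gRNA NTC, and 19 of the 24 libraries had 3 counts or fewer. No test was made, because the gene did not reach 10 counts in any library.

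OAS1 (ENSG00000089127.12_3, chromosome 12, 113344582 to 113371027, plus strand) makes the oligoadenylate that activates RNase L. It had 3 counts in all 336251325 counts of the series, 1 each in gRNA KD B, gRNA KD C and pre-gRNA KD B, and was at 0 in the other 21 libraries. OAS3 (ENSG00000111331.12_2, chromosome 12, 113376157 to 113411054, plus strand), a larger enzyme of the same family and its neighbour, had 89 counts. In the syn-gRNA setup its counts were 1, 2 and 0 in KD and 2, 1 and 1 in NTC. In the 12 libraries with plasmid guides they ran from 2 to 9, and in the agoshRNA libraries from 1 to 10. The syn-gRNA libraries thus held 7 counts of OAS3 in all, fewer than the 24 in the 6 agoshRNA libraries and the 58 in the 12 plasmid libraries. The pooled level in syn-gRNA NTC was 0.092 CPM (exact Poisson 95% interval 0.025 to 0.236) and that in gRNA NTC 0.290 CPM (0.150 to 0.507), and these intervals, which cover counting error only, overlapped. In KD the pooled intervals of syn-gRNA, at 0.081 CPM (0.017 to 0.237), and gRNA, at 0.418 CPM (0.244 to 0.670), did not overlap. Single libraries of these 2 groups did, with 2 counts each in syn-gRNA KD B (0.16 CPM) and gRNA KD A (0.15 CPM). The intervals of pre-gRNA, at 0.304 CPM (0.166 to 0.509), and agoshRNA, at 0.331 CPM (0.176 to 0.565), overlapped with that of syn-gRNA. OAS3 reached 10 counts in a single library, agoshRNA KD A, and was not tested either. A long antisense gene, RP1-71H24.1, covers OAS3 and part of OAS1 in the files and had 0 counts throughout.

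**Figure D1:**
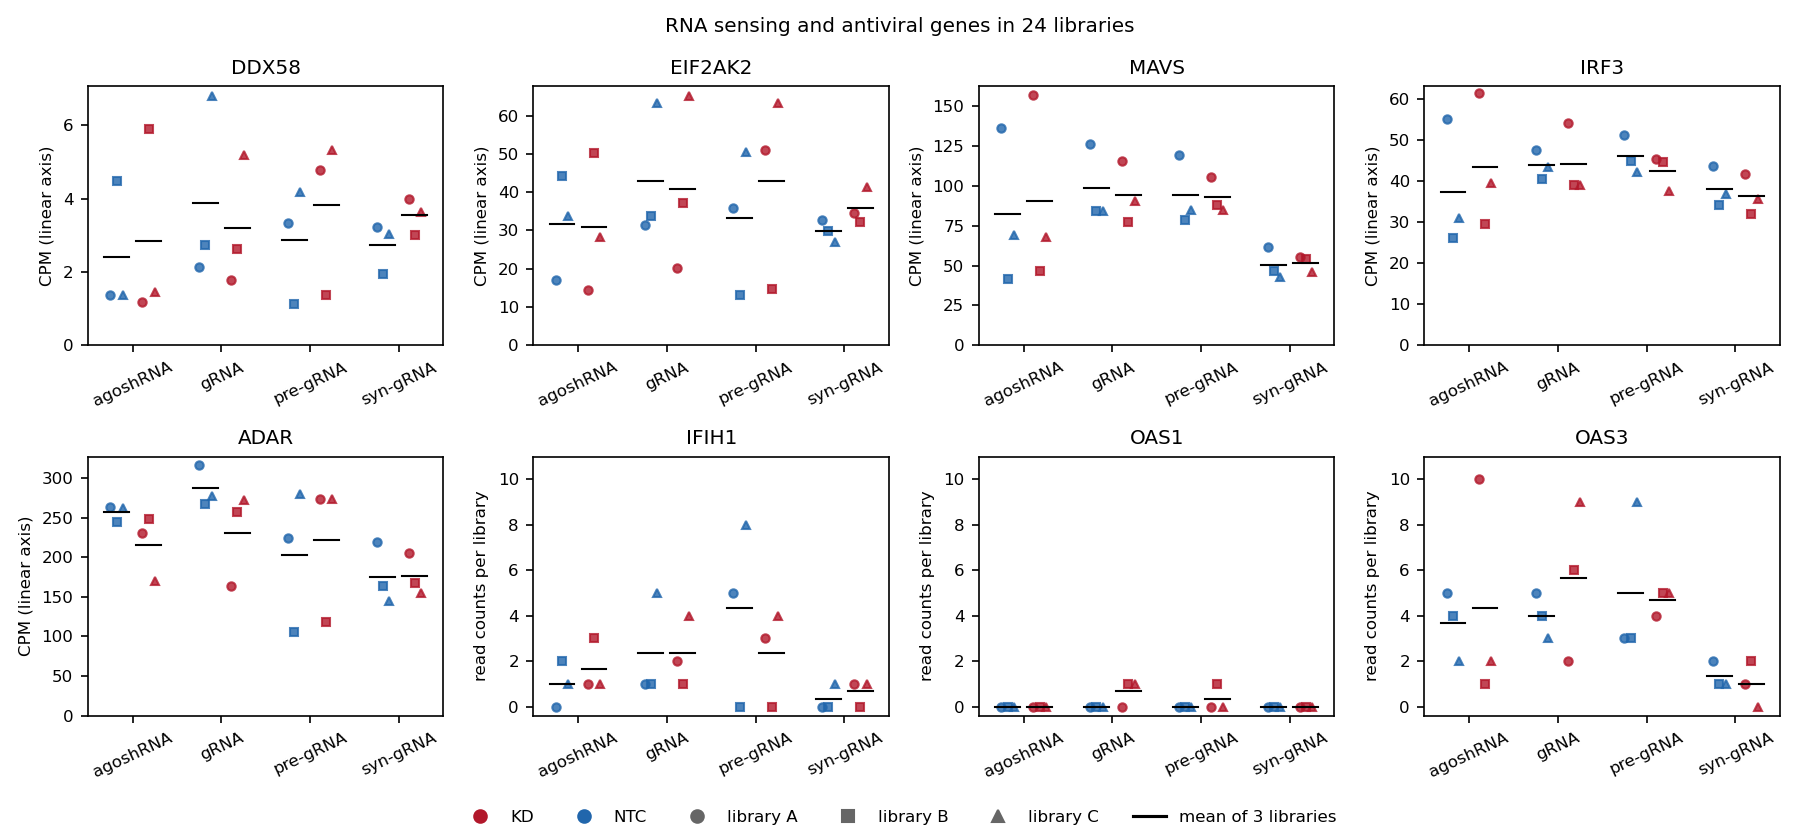
Level of each of the 8 genes in every library, by setup, with NTC in blue, KD in red, the library letter as the symbol and black bars for the mean of 3 libraries. DDX58, EIF2AK2, MAVS, IRF3 and ADAR are in CPM on a linear axis from 0, and IFIH1, OAS1 and OAS3 are in read counts. MAVS lies between 42.8 and 61.9 CPM in the syn-gRNA libraries and between 77.5 and 126.7 CPM in the plasmid-guide libraries.

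The first comparison was between KD and NTC within each setup. Of the 8 members, 5 had at least 10 counts in 3 or more libraries and entered the test: DDX58, EIF2AK2, MAVS, IRF3 and ADAR. With DESeq2 and Benjamini-Hochberg adjustment over all genes tested, 0 of the 5 had an adjusted p under 0.05 in the agoshRNA, gRNA, pre-gRNA or syn-gRNA setup. The background was 0% of 17802 genes in agoshRNA, 0% of 18371 in gRNA, 0% of 18717 in pre-gRNA and 0% of 18513 in syn-gRNA. At an unadjusted p under 0.05, also, 0 of the 5 passed in any setup, beside 0%, 0.0925%, 0.0107% and 0.297% of all genes in the same order. EdgeR and limma-voom called 0 members as well. The KD and NTC libraries of a gene did not overlap for 0 of 5 members in agoshRNA (0.769% of all genes), 0 in gRNA (2% of all genes), 0 in pre-gRNA (1.03% of all genes) and 2 in syn-gRNA (5.05% of all genes). The median log2 fold change of the 5 members was 0.16 in agoshRNA, -0.01 in gRNA, 0.10 in pre-gRNA and 0.04 in syn-gRNA, beside 0.06, 0.02, 0.01 and 0.00 for all genes.

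DDX58 (ENSG00000107201.9_2, chromosome 9, 32455703 to 32526322, minus strand), the RIG-I sensor, was the least abundant gene tested and the most variable. In agoshRNA libraries A, B and C it stood at 1.17, 5.89 and 1.46 CPM in KD and at 1.37, 4.47 and 1.38 CPM in NTC. In gRNA it stood at 1.79, 2.62 and 5.2 CPM in KD and at 2.13, 2.72 and 6.79 CPM in NTC. A single library was far above the other 2 in each of these groups, B in agoshRNA and C in gRNA, in KD and NTC alike. In pre-gRNA it stood at 4.79, 1.37 and 5.33 CPM in KD and at 3.33, 1.13 and 4.17 CPM in NTC, with library B low in both arms. In syn-gRNA it stood at 3.99, 3.0 and 3.64 CPM in KD and at 3.22, 1.95 and 3.03 CPM in NTC. KD and NTC overlapped on the CPM scale in each setup. After division by DESeq2 size factors the 3 syn-gRNA KD libraries lay above the 3 NTC libraries, as 3.06% of all genes did. The log2 fold change was 0.27 (SE 0.85) in agoshRNA, -0.22 (SE 0.57) in gRNA, 0.38 (SE 0.58) in pre-gRNA and 0.37 (SE 0.32, 95% interval -0.26 to 1.00) in syn-gRNA.

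EIF2AK2 (ENSG00000055332.16_3, chromosome 2, 37326353 to 37384208, minus strand) encodes PKR, which halts translation by phosphorylating eIF2α when it binds double-stranded RNA. Its agoshRNA libraries A, B and C held 14.4, 50.2 and 28.2 CPM in KD and 17.0, 44.3 and 33.8 CPM in NTC. The gRNA libraries held 20.2, 37.2 and 65.1 CPM in KD and 31.5, 33.7 and 63.4 CPM in NTC. Library B was again the highest in agoshRNA and library C in gRNA, so EIF2AK2 and DDX58 were high in the same libraries. The pre-gRNA libraries held 50.9, 14.6 and 63.2 CPM in KD and 35.8, 13.2 and 50.6 CPM in NTC. The syn-gRNA libraries held 34.4, 32.1 and 41.3 CPM in KD and 32.7, 29.7 and 27.0 CPM in NTC. The arms overlapped in every setup on the CPM scale, and in syn-gRNA KD lay above NTC once counts were divided by size factors. The log2 fold change was 0.00 (SE 0.66) in agoshRNA, -0.01 (SE 0.48) in gRNA, 0.34 (SE 0.57) in pre-gRNA and 0.26 (SE 0.16, unadjusted p = 0.0971, adjusted p = 1) in syn-gRNA. Reads of the opposite-strand genes GPATCH11 and AC007899.3, which overlap EIF2AK2 by 35 and 775 bases, cannot be told apart from its own there, since the libraries were non-stranded.

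MAVS (ENSG00000088888.17_2, chromosome 20, 3827446 to 3856770, plus strand) is the adaptor on which both helicase sensors converge. In agoshRNA libraries A, B and C it was at 157.1, 46.6 and 67.8 CPM in KD and at 136.2, 41.6 and 69.1 CPM in NTC, so that library A was high and B low in both arms. In gRNA it was at 115.6, 77.5 and 90.4 CPM in KD and at 126.7, 84.5 and 84.3 CPM in NTC. In pre-gRNA it was at 105.8, 88.1 and 85.0 CPM in KD and at 119.4, 78.7 and 84.7 CPM in NTC. The syn-gRNA libraries were the lowest as a set, at 55.4, 54.1 and 46.0 CPM in KD and 61.9, 46.7 and 42.8 CPM in NTC. KD and NTC overlapped in each setup. Its log2 fold change was 0.16 (SE 0.58) in agoshRNA, 0.06 (SE 0.35) in gRNA, -0.04 (SE 0.34) in pre-gRNA and 0.04 (SE 0.16, 95% interval -0.27 to 0.35) in syn-gRNA.

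IRF3 (ENSG00000126456.15_3, chromosome 19, 50162826 to 50169132, minus strand), the transcription factor that MAVS signalling activates by phosphorylation, varied least. Its agoshRNA libraries A, B and C were at 61.5, 29.5 and 39.6 CPM in KD and at 55.2, 26.2 and 31.1 CPM in NTC. The gRNA libraries were at 54.3, 39.1 and 39.2 CPM in KD and at 47.6, 40.6 and 43.4 CPM in NTC. Libraries with much MAVS, such as agoshRNA A, also had much IRF3. The pre-gRNA libraries were at 45.4, 44.7 and 37.5 CPM in KD and at 51.2, 44.9 and 42.2 CPM in NTC. The syn-gRNA libraries were at 41.7, 32.0 and 35.7 CPM in KD and at 43.7, 34.1 and 36.8 CPM in NTC. The arms overlapped in every setup, and the log2 fold change was 0.25 (SE 0.43), 0.13 (SE 0.33), -0.14 (SE 0.36) and -0.07 (SE 0.15) in agoshRNA, gRNA, pre-gRNA and syn-gRNA. IRF3 shares 734 bases with the opposite-strand gene BCL2L12, so reads there cannot be told apart.

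ADAR (ENSG00000160710.15_4, chromosome 1, 154554538 to 154600475, minus strand) edits adenosines in double-stranded RNA and so keeps cellular RNA from being sensed. Its interferon-induced and constitutive forms share most exons and were counted together. The agoshRNA libraries A, B and C were at 230.9, 247.8 and 169.6 CPM in KD and at 263.1, 244.6 and 262.0 CPM in NTC. The gRNA libraries were at 163.6, 257.6 and 271.9 CPM in KD and at 316.8, 267.7 and 277.8 CPM in NTC. In these 2 setups the widest gap between arms came from a single low KD library, C in agoshRNA and A in gRNA. The pre-gRNA libraries were at 273.5, 118.0 and 273.2 CPM in KD and at 223.9, 105.6 and 279.7 CPM in NTC, with B low in both arms. The syn-gRNA libraries were at 205.0, 167.9 and 154.7 CPM in KD and at 218.8, 163.4 and 144.9 CPM in NTC. After division by size factors the arms overlapped in each setup, and the log2 fold change was -0.22 (SE 0.33), -0.23 (SE 0.32), 0.10 (SE 0.44) and 0.00 (SE 0.16, 95% interval -0.31 to 0.31) in agoshRNA, gRNA, pre-gRNA and syn-gRNA.

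**Figure D2:**
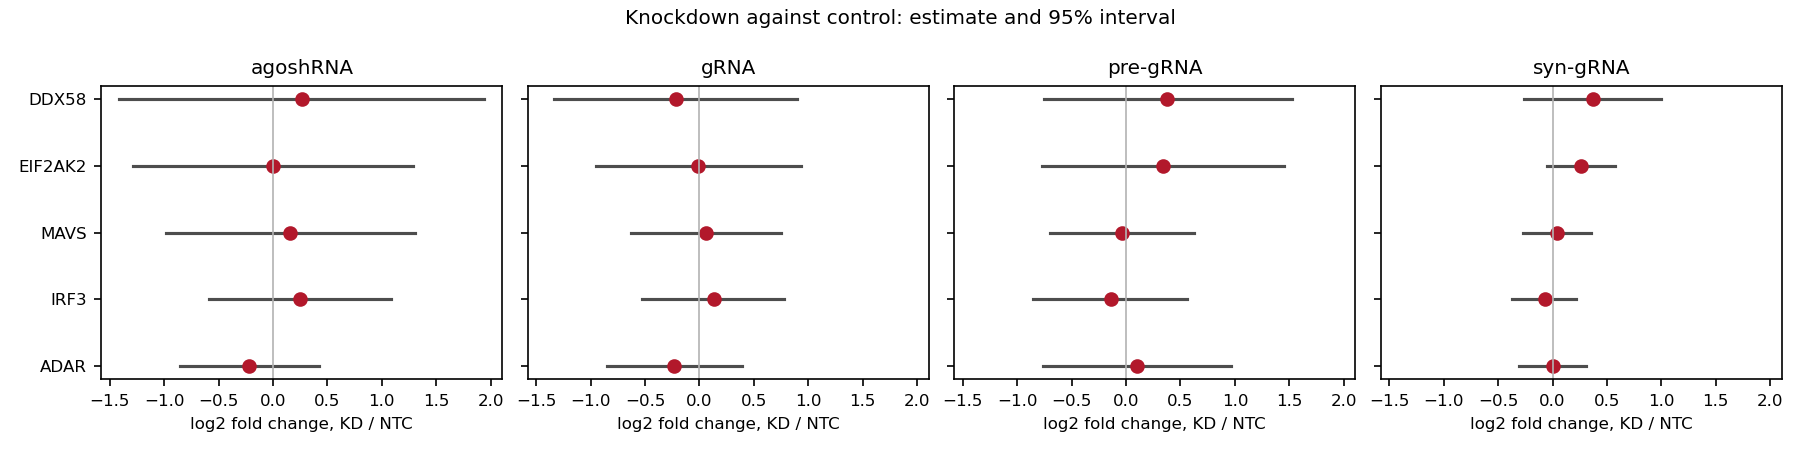
Log2 fold change of KD over NTC (x axis) for the 5 genes that could be tested, 1 panel per setup, with points for the DESeq2 estimate and bars for its 95% interval. Every interval includes 0, and the bars are shortest in the syn-gRNA panel, where the SEs run from 0.15 to 0.32.

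The precision of these values differed between setups. Over the 5 genes the SE of the log2 fold change ran from 0.33 to 0.85 in agoshRNA, 0.32 to 0.57 in gRNA, 0.34 to 0.58 in pre-gRNA and 0.15 to 0.32 in syn-gRNA, where the median SE of all genes was 0.53, 0.43, 0.49 and 0.20. A p that missed the threshold here does not show that a gene was unaffected: for DDX58 in agoshRNA the 95% interval of the log2 fold change ran from -1.41 to 1.94.

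These SEs come from a fit without the column letter. Deviations of same-letter KD and NTC libraries from their group means were positively correlated in each setup, least clearly in syn-gRNA (0.36 to 0.78, against -0.65 to 0.42 for different letters). With the letter as a block the SEs ran from 0.16 to 0.43 in agoshRNA, 0.18 to 0.36 in gRNA, 0.10 to 0.32 in pre-gRNA and 0.09 to 0.34 in syn-gRNA, and the interval of DDX58 in agoshRNA from -0.70 to 0.99. In DESeq2 0 of 5 members were called in any setup with this block. Unadjusted, 1 had a p under 0.05, EIF2AK2 in pre-gRNA (log2 fold change 0.31, SE 0.13, 95% interval 0.05 to 0.57, unadjusted p = 0.0197, adjusted p = 0.831), beside 5.4% of all genes there. With GC offsets and the block together its value was 0.19 (SE 0.12, unadjusted p = 0.114).

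Paired by letter, the sign was shared by all 3 pairs in some cases. For DDX58 the log2 CPM (pseudocount 0.5) of KD minus that of NTC was 0.47, 0.20 and 0.32 in pre-gRNA A, B and C, 0.27, 0.52 and 0.23 in syn-gRNA and -0.20, -0.05 and -0.35 in gRNA, but -0.17, 0.36 and 0.06 in agoshRNA. EIF2AK2 was higher in KD in all 3 pairs of pre-gRNA (0.14 to 0.50) and of syn-gRNA (0.07 to 0.61), and in 2 of 3 in gRNA and 1 of 3 in agoshRNA. IRF3 was higher in KD in all 3 pairs of agoshRNA (0.16 to 0.34) and lower in all 3 of pre-gRNA (-0.17 to -0.01) and syn-gRNA (-0.09 to -0.04). ADAR was lower in all 3 pairs of gRNA (-0.95 to -0.03), and MAVS changed sign among the pairs of each setup. These signs are a description, with no test. In the authors' deposited table the adjusted p of each of the 8 genes was 1 in all 4 setups.

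The second comparison asked whether the KD effect itself differed between the kinds of guide. The differences of the KD effect were taken between syn-gRNA and the mean of the plasmid guides (gRNA and pre-gRNA), agoshRNA and the plasmid guides, agoshRNA and syn-gRNA, and gRNA and pre-gRNA. In none of these 4 differences did a member have an adjusted p under 0.05 in DESeq2 (0 of 5 tested, background 0% of 20172 genes in each), and edgeR and limma-voom called 0. At an unadjusted p under 0.05 there were 0 members, beside 0.169%, 0.129%, 0.144% and 0.178% of all genes in the order just given. For MAVS the difference between syn-gRNA and plasmid guides was 0.04 (SE 0.45, 95% interval -0.84 to 0.92). The difference of largest size among the 5 genes was that of DDX58 between gRNA and pre-gRNA, at -0.60 (SE 0.90).

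The third comparison set the kinds of guide against each other within NTC and, separately, within KD, in 1 model of the 24 libraries. MAVS stood lower with the synthetic guide than with plasmid guides in both arms, and every syn-gRNA library (42.8 to 61.9 CPM) lay below every plasmid-guide library (77.5 to 126.7 CPM). The log2 difference was -0.84 (SE 0.32, 95% interval -1.47 to -0.22) in NTC and -0.80 (SE 0.32, 95% interval -1.42 to -0.18) in KD. Its unadjusted p was 0.00776 in NTC and 0.0115 in KD, but its adjusted p in DESeq2 was 0.098 and 0.119, so that 0 of 5 members passed in either arm, beside 5.09% of 20172 genes in NTC and 5.34% in KD. At an unadjusted p under 0.05 MAVS was the 1 of 5 members that passed, beside 18.3% of all genes in NTC and 19.2% in KD. Groups that did not overlap, with syn-gRNA the lower, were found for 9.94% of all genes in NTC, 9.01% in KD and 6.12% in both arms, and MAVS was the 1 member of 5 among the last.

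The call for MAVS depended on the fit. Fitted on the 9 NTC libraries of the contrast alone, the log2 difference was -0.84 with an adjusted p of 0.00957 in DESeq2. In that fit 9.29% of all genes were called. EdgeR on all libraries gave -0.86 with an adjusted p of 0.173, and called 2.32% of all genes. Over 6 alternatives the NTC value lay between -0.86 and -0.64 with adjusted p between 0.00957 and 0.173. The value passed in 2 of them, the fit on 9 libraries and the one with GC offsets, which called 12.5% of all genes. In KD it lay between -0.81 and -0.60 with adjusted p between 0.0538 and 0.193, and passed in none of 6. The setups differ in what was delivered to the cells, and the kind of guide cannot be told apart from anything else that differed between setups.

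EIF2AK2 was the other gene whose result turned on the processing. With plasmid guides its CPM ran from 13.2 to 65.1 and enclosed the syn-gRNA range of 27.0 to 41.3. The log2 difference of syn-gRNA from plasmid guides was -0.22 (SE 0.46, adjusted p = 0.859) in NTC and -0.11 (SE 0.46, adjusted p = 0.927) in KD. When a trend on GC content was removed from each library, the NTC libraries with syn-gRNA stood at 8.38, 8.54 and 8.36 on a log2 scale of normalised counts and those with plasmid guides between 8.60 and 9.19. In KD they stood at 8.41, 8.71 and 8.78 against 8.80 to 9.32, so that the groups no longer overlapped in either arm. With these offsets syn-gRNA lay below plasmid guides without overlap for 9.91% of 19726 genes in NTC and 9.61% in KD. With these offsets the log2 difference was -0.53 (adjusted p = 0.00268 in DESeq2) in NTC and -0.42 (adjusted p = 0.0232) in KD, beside 12.5% and 11.7% of all genes called under the same offsets. MAVS passed in NTC with these offsets (-0.64, adjusted p = 0.0375) and missed in KD (-0.60, adjusted p = 0.0549).

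For the other members the synthetic and plasmid guides gave no call. ADAR differed by -0.35 (SE 0.24) in NTC and -0.27 (SE 0.24) in KD, where its syn-gRNA libraries lay between 144.9 and 218.8 CPM and those with plasmid guides between 105.6 and 316.8 CPM. IRF3 differed by -0.16 (SE 0.24) and -0.21 (SE 0.24), and DDX58 by -0.18 (SE 0.55) and 0.12 (SE 0.55). The median log2 difference of the 5 members was -0.22 in NTC and -0.21 in KD, beside -0.03 and -0.05 for all genes.

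The hairpin vector gave no call among the members. Against plasmid guides 0 of 5 passed in either arm, beside 0.0694% of all genes in NTC and 0.0793% in KD. At an unadjusted p under 0.05, also 0 of 5 passed, beside 2.84% in NTC and 2.74% in KD, edgeR and limma-voom called 0, and the 5 log2 differences lay between -0.31 and 0.19 in NTC and between -0.27 and 0.04 in KD. Against syn-gRNA 0 of 5 passed in DESeq2, edgeR or limma-voom, beside 1.84% of all genes in NTC and 3.14% in KD in DESeq2. Unadjusted, 0 passed in NTC and 1 in KD, beside 12.4% and 15.2% of all genes. MAVS was 0.65 higher than in syn-gRNA on the log2 scale in NTC (SE 0.37, unadjusted p = 0.0772) and 0.76 higher in KD (SE 0.37, unadjusted p = 0.0374, adjusted p = 0.282). The agoshRNA libraries spread from 41.6 to 157.1 CPM and enclosed the syn-gRNA range, and without agoshRNA KD B the KD value was 1.05 with an adjusted p of 0.0474 in DESeq2. Without agoshRNA KD A it was 0.24. Over the fits that each left out 1 library, 0.532% to 10.8% of all genes were called in this KD contrast. ADAR in NTC lay between 244.6 and 263.1 CPM in agoshRNA, above the syn-gRNA range of 144.9 to 218.8 CPM, with a log2 difference of 0.54 (SE 0.28, adjusted p = 0.407), as 10.2% of all genes did not overlap in that direction.

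Mature and precursor guides did not separate. The members called were 0 of 5 in each arm, beside 0% of 20172 genes. The log2 differences of gRNA from pre-gRNA ran from -0.20 for IRF3 to 0.44 for ADAR in NTC and from -0.21 for DDX58 to 0.11 for ADAR in KD. Their SEs of 0.27 to 0.63 leave room for differences of that size. At an unadjusted p under 0.05, 0 of 5 members passed in either arm, beside 0.516% of all genes in NTC and 0.233% in KD, and edgeR and limma-voom called 0.

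**Figure D3:**
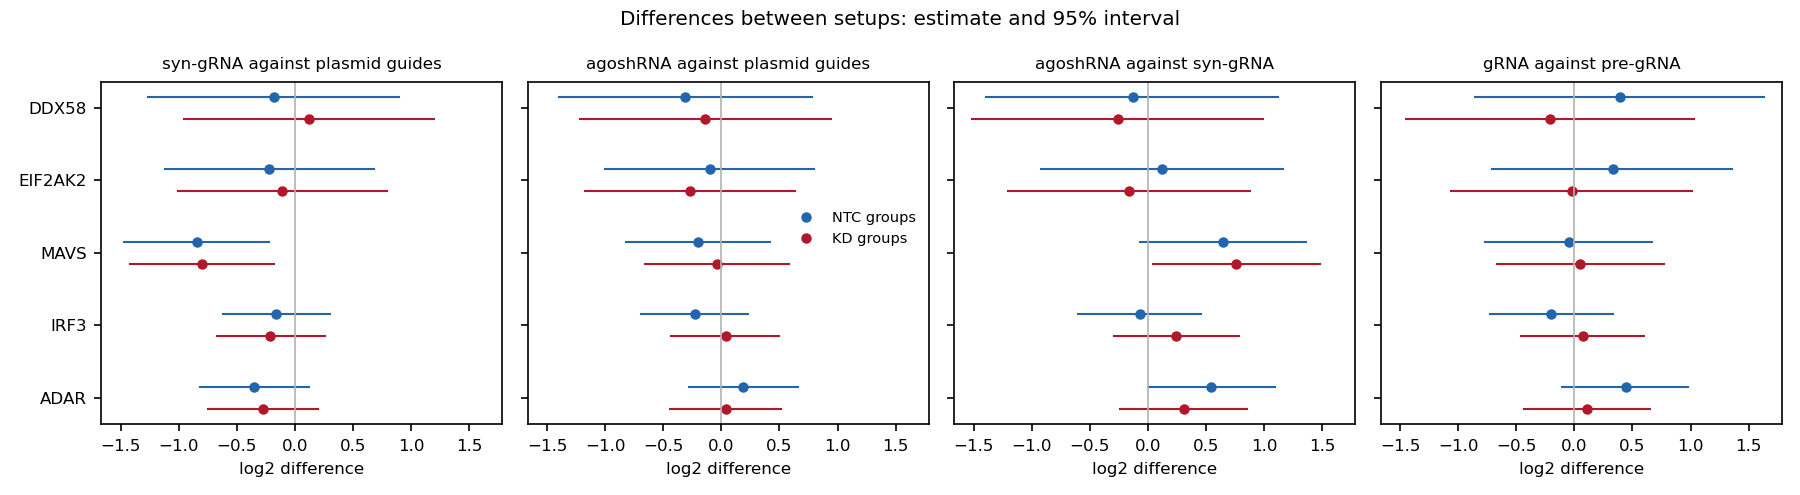
Log2 difference between kinds of guide (x axis) for 5 genes, with NTC in blue and KD in red, points for the DESeq2 estimate in the model of 24 libraries and bars for its 95% interval. For MAVS both intervals of syn-gRNA against plasmid guides lie below 0, at -1.47 to -0.22 in NTC and -1.42 to -0.18 in KD.

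Groups next to each other in the order of levels rarely differed. For EIF2AK2 the group means ran from 42.9 CPM ± 25.2 (SD, n = 3) in pre-gRNA KD to 29.8 ± 2.89 in syn-gRNA NTC, and no pair of neighbours in the order differed by more than the larger SD. For DDX58, from 3.88 ± 2.54 in gRNA NTC to 2.41 ± 1.79 in agoshRNA NTC, and for IRF3, from 46.1 ± 4.65 in pre-gRNA NTC to 36.5 ± 4.86 in syn-gRNA KD, the same held. MAVS ran from 98.5 ± 24.4 in gRNA NTC to 50.5 ± 10.1 in syn-gRNA NTC. Its widest gap, 30.5 CPM between agoshRNA NTC (82.3 ± 48.7) and syn-gRNA KD (51.9 ± 5.08), was also within the larger SD, while groups farther apart, such as pre-gRNA KD (93.0 ± 11.2) and syn-gRNA KD, differed by more. ADAR was the exception among the 5: gRNA NTC (287.4 ± 25.9) stood above agoshRNA NTC (256.6 ± 10.4) by 30.8 CPM, more than either SD, and its lowest group was syn-gRNA NTC (175.7 ± 38.4). Of the silent genes, IFIH1 and OAS1 had no such gap, and for OAS3 the step from agoshRNA NTC (0.27 ± 0.11 CPM) to syn-gRNA NTC (0.09 ± 0.04 CPM) exceeded the larger SD. That step is between 2 to 5 and 1 to 2 counts per library, near the limit of 3 counts.

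The base composition of the transcripts moved with the levels. For each library a slope was computed across 13676 genes, of the log2 deviation of a gene from its mean over the libraries, per 10 percentage points of GC content. It ran from -0.587 in agoshRNA KD B to 0.785 in agoshRNA KD A, 2 libraries of 1 group. In the 6 syn-gRNA libraries it was below 0 throughout, from -0.311 to -0.099. In the 12 libraries with plasmid guides it lay on both sides of 0, from -0.414 to 0.661. The part of the slope in the differences between setups was not tested beyond the offsets given above. EIF2AK2 and DDX58 are the members poorest in GC, at 38.7% and 40.5%, and stood at 50.2 and 5.89 CPM in agoshRNA KD B but at 14.4 and 1.17 CPM in agoshRNA KD A. MAVS at 52.1% GC and IRF3 at 59.0% were ordered the other way, at 46.6 and 29.5 CPM in KD B and 157.1 and 61.5 CPM in KD A. ADAR, at 49.3% GC, was alike in both, at 247.8 and 230.9 CPM.

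Removing the trend on GC content narrowed the spread within groups for 4 of the 5 genes. The pooled SD within groups on the log2 scale went from 0.72 to 0.17 for EIF2AK2, from 0.84 to 0.38 for DDX58, from 0.29 to 0.16 for IRF3 and from 0.43 to 0.31 for MAVS. For ADAR it was 0.31 before and after. With the same offsets the members called in KD against NTC were 0 of 5 in each of the 4 setups.

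Genes whose log2 CPM followed each member most closely over the 24 libraries were ranked over the 13834 genes that averaged 50 counts or more. The nearest were SLC25A24, EML5 and GS1-358P8.4 for DDX58 (Pearson r = 0.967, 0.961 and 0.960) and AKAP12, UBE4A and MIOS for EIF2AK2 (0.983, 0.982 and 0.979). For MAVS they were C22orf29, SKI and FOXF2 (0.985, 0.982 and 0.981), for IRF3 HCFC1, TNK2 and PPP6R2 (0.947, 0.937 and 0.932), and for ADAR VCL, RPRD1B and GART (0.978, 0.966 and 0.965). The 3 genes nearest to DDX58 (40.5% GC) had GC contents of 38.4 to 40.6% and those nearest to IRF3 (59.0%) 58.8 to 61.5%. Those nearest to EIF2AK2 (38.7%) were richer in GC, at 41.3 to 46.3%, as were those nearest to MAVS (52.1%), at 54.3 to 63.6%, and those nearest to ADAR (49.3%) were poorer, at 45.1 to 46.8%. The libraries share the GC trend just described, so r is given as a description. The median r over all genes was 0.02 for DDX58 and 0.23 for MAVS.

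The surrounding pathway was read from a list of 73 symbols, of which 71 were in the files. Its 8 ligands were close to absent: IFNB1, IFNL1, IFNL2, IFNL3, IFNA1, CXCL10, CXCL11 and CCL5 had at most 4 counts in any library, and none could be tested. Of the 15 sensors and their partners, 7 had at least 10 counts in all libraries. The RNA helicase DHX9 was the most abundant at 42.3 RPKM, and the endosomal RNA sensors TLR3 (0.005 RPKM), TLR7 (0.002 RPKM) and TLR8 (0 counts) were near 0, as were the nucleic acid sensors ZBP1 (0.004 RPKM) and AIM2 (0 counts). Of the 17 signalling genes, 15 had at least 10 counts in all libraries, among them the kinase TBK1 at 3.27 RPKM and the interferon receptor chains IFNAR1 and IFNAR2 at 3.85 and 6.27 RPKM. Of 31 effectors and their targets 14 did. EIF2S1, the eIF2α that PKR phosphorylates, was the highest of these at 13.6 RPKM, and the antiviral transmembrane protein IFITM2 stood at 8.05 RPKM. The interferon targets RSAD2 and MX1 averaged 0.002 and 0.010 RPKM. The signalling genes IKBKE and MYD88 averaged 0.16 and 0.39 CPM. The cells thus held most receptor, kinase and factor messages of the list, while ligand messages were at or near 0. Against the 14 effectors with at least 10 counts in all libraries, 9 had at most 5 in any, RSAD2 and MX1 among them.

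The promoter pattern was common in the effectors. Of the 24 effectors with a promoter entry 18 held a match (75%), against 419 of 27305 genes with an entry (1.53%), which describes a list made up of interferon targets. Of these 18 genes, 12 had at least 10 counts in 3 or more libraries (66.7%), and 4 of the 6 without a match did (66.7%). ISG15, a ubiquitin-like protein induced by interferon, averaged 3.68 CPM, whereas IFI44 averaged 0.01 CPM, and both held a match.

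In KD against NTC 0 of the listed pathway genes were called in any setup. Tested were 40 in agoshRNA, 40 in gRNA, 43 in pre-gRNA and 41 in syn-gRNA. Unadjusted, 0 had a p under 0.05 in DESeq2, beside 0%, 0.0925%, 0.0107% and 0.297% of all genes in that order. EdgeR and limma-voom called 0 of all genes in each setup. Among pathway genes that averaged 50 counts or more, the estimates of largest size were those of IFITM2 in agoshRNA (0.37, SE 0.49) and gRNA (0.42, SE 0.39), ISG15 in pre-gRNA (-0.39, SE 0.49) and IFIT5, an RNA-binding effector, in syn-gRNA (0.22, SE 0.30). The next in size were NLRX1 in agoshRNA (0.34, SE 0.61), IFI6 in gRNA (0.36, SE 0.39), TRAF6 in pre-gRNA (0.32, SE 0.63) and IRF9 in syn-gRNA (0.16, SE 0.24). In each of these 8 cases KD and NTC overlapped.

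Between setups a few pathway genes passed. NLRX1, a mitochondrial protein known to bind MAVS and to restrain it, was lower with syn-gRNA than with plasmid guides. Its NTC libraries A, B and C held 12.6, 8.69 and 10.1 CPM in syn-gRNA, 29.2, 16.8 and 24.8 CPM in gRNA and 31.2, 24.4 and 21.5 CPM in pre-gRNA. Its KD libraries held 12.2, 10.0 and 9.28 CPM in syn-gRNA, 36.5, 14.6 and 22.6 CPM in gRNA and 27.4, 27.6 and 22.9 CPM in pre-gRNA. The groups did not overlap in either arm, with syn-gRNA the lower, as for 6.12% of all genes. In DESeq2 the log2 difference was -1.16 (SE 0.37, adjusted p = 0.0406) in NTC and -1.23 (SE 0.37, adjusted p = 0.0265) in KD. Among all genes 2.2% were called lower in NTC and 2.31% in KD. In edgeR and limma-voom NLRX1 missed the threshold in both arms, with adjusted p up to 0.118 over 6 alternatives in NTC. On leaving out 1 library, the NTC call was kept without gRNA NTC B or pre-gRNA NTC C and lost without any other, with adjusted p up to 0.292. The KD call was lost without gRNA KD A, pre-gRNA KD B or any syn-gRNA KD library, with adjusted p up to 0.235.

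Another 3 genes passed in 1 arm and missed in the other, which does not show that the arms differ. IFI35, an interferon-induced protein, had 6 to 12 counts in syn-gRNA NTC and 11 to 79 with plasmid guides, with a log2 difference of -1.85 (SE 0.61, adjusted p = 0.0495), and its groups overlapped. In KD it averaged 0.93 CPM in syn-gRNA, 1.09 CPM in gRNA and 1.92 CPM in pre-gRNA. ZCCHC3, a co-receptor of the helicase sensors, differed by -1.09 (SE 0.35, adjusted p = 0.0393) in KD, from 23.2 to 30.8 CPM in syn-gRNA to 39.8 to 88.4 CPM with plasmid guides. In NTC it averaged 28.5 CPM in syn-gRNA, 56.5 CPM in gRNA and 59.4 CPM in pre-gRNA. USP18, which removes ISG15 from proteins, differed by -0.76 (SE 0.25, adjusted p = 0.0489) in KD. Its KD libraries held 7.23 to 7.97 CPM in syn-gRNA and 9.80 to 17.9 CPM with plasmid guides, and its NTC libraries 7.30 to 8.25 CPM in syn-gRNA, 10.4 to 16.1 CPM in gRNA and 14.4 to 15.6 CPM in pre-gRNA. Each of these 3 calls was lost in edgeR and limma-voom. On leaving out 1 library, that of IFI35 was kept without gRNA NTC C or pre-gRNA NTC C, and those of ZCCHC3 and USP18 without gRNA KD B, gRNA KD C or pre-gRNA KD C, and each was lost without any other, with adjusted p up to 0.31. Of 43 pathway genes tested, 2 were called lower and 0 higher in NTC and 3 lower and 0 higher in KD. Among all 20172 genes 2.2% and 2.31% were called lower, and 584 and 613 genes were called higher. At an unadjusted p under 0.05 in DESeq2 7 of the 43 passed in NTC and 8 in KD, beside 18.3% and 19.2% of all genes. Of those that passed, 0 were higher with syn-gRNA in NTC and 2 in KD. The median log2 difference of the 43 genes was -0.18 in NTC and -0.22 in KD, beside -0.03 and -0.05 for all genes. It was above 0 for 15 of the 43 genes in NTC and for 14 in KD.

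USP18 was also higher with the hairpin vector than with syn-gRNA. It held 21.5, 13.6 and 14.4 CPM in agoshRNA NTC against 8.25, 8.16 and 7.30 CPM in syn-gRNA NTC. In KD it held 21.0, 12.4 and 17.4 CPM against 7.23, 7.97 and 7.46 CPM. The agoshRNA libraries lay above the syn-gRNA libraries in both arms, as for 5.07% of all genes, and the log2 difference was 1.03 (SE 0.29, adjusted p = 0.026) in NTC and 1.16 (SE 0.29, adjusted p = 0.00635) in KD. USP18 was the 1 pathway gene of 43 called in each arm, beside 0.813% of all genes called higher in NTC and 1.42% in KD. The KD call held in edgeR and limma-voom and was lost in the fit on its own 6 libraries (adjusted p = 0.074) and without agoshRNA KD A, agoshRNA KD C or syn-gRNA KD C, with adjusted p up to 0.0902. The NTC call was lost in edgeR and limma-voom and without any of the 6 libraries other than agoshRNA NTC B. USP41, a near copy of USP18, had at most 2 counts. Between agoshRNA and plasmid guides 0 of 43 were called in DESeq2 in either arm. Unadjusted, 2 had a p under 0.05 in NTC and 3 in KD, beside 2.84% and 2.74% of all genes. The estimates of largest size were -0.44 (SE 0.35) for RNF135, a ubiquitin ligase that acts on RIG-I, and -0.41 (SE 0.37) for NLRX1 in NTC, and 0.75 (SE 0.28, adjusted p = 1) for IRF9 and 0.42 (SE 0.33) for IFI6 in KD. Between gRNA and pre-gRNA 0 of 43 were called in either arm by DESeq2, edgeR or limma-voom. Unadjusted, 3 had a p under 0.05 in NTC and 1 in KD in DESeq2, beside 0.516% and 0.233% of all genes. There ISG15 differed by -0.75 (SE 0.38, adjusted p = 0.988) and TRAF6 by 0.60 (SE 0.60) in NTC, and IRF9 by 0.27 (SE 0.33) and TRAF6 by 0.21 (SE 0.60) in KD. The KD effect on the 43 genes differed between kinds of guide for 0 genes after adjustment in each of the 4 differences, where edgeR and limma-voom called 0 of all genes. At an unadjusted p under 0.05 there was 1 such gene between syn-gRNA and plasmid guides, beside 0.169% of all genes, and 0 in the others. The estimates of largest size were -0.33 (SE 0.48) for IFITM2 between syn-gRNA and plasmid guides, 0.39 (SE 0.40) for IRF9 between agoshRNA and plasmid guides, 0.48 (SE 0.56) for IFITM2 between agoshRNA and syn-gRNA and 0.63 (SE 0.54) for ISG15 between gRNA and pre-gRNA. Next to them stood IRF9 (0.32, SE 0.40), ISG15 (0.36, SE 0.47), IFITM1 (0.33, SE 0.49) and TARBP2 (0.56, SE 0.55) in the same order of differences.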

How the data were processed

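The 4 deposited tables held the same raw read counts per gene in 24 libraries. Per the submitters' processing notes the authors used Trim Galore, STAR 2.7.3a, featureCounts, DESeq2 and hg19, and their settings and annotation release are not given in the sources used here. Log2 fold changes and p-values of KD against NTC were made by the authors with DESeq2 and deposited in the same tables. Per table, 24 columns of other per-sample values were not used.

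Here KD was tested against NTC on the 6 libraries of a setup, and setups against each other in 1 model of 24 libraries with 1 coefficient per group, using DESeq2 1.42.0 (Wald statistics, R 4.3.3). Genes with at least 10 counts in 3 or more fitted libraries were tested, and adjusted p-values under 0.05 were called. Whether groups overlap was judged on counts divided by size factors unless CPM is named. Log2 CPM carried a pseudocount of 0.5 in the likeness ranking. GC content came from GENCODE release 29 and matched 93.2% of genes. Alternatives were edgeR 4.0.16, limma 3.58.1 (voom), TMM factors, no filter, other sets of libraries, the column letter as a term, GC offsets (a lowess trend per library) and leaving out each library. The pairing by letter comes from the column names. The correlation, across genes, of deviations from group means was 0.36 to 0.97 in 12 same-letter pairs and -0.94 to 0.50 for different letters. Deviations within a group sum to 0, so high values for the same letter force lower ones for different letters. In syn-gRNA the ranges overlapped, at 0.36 to 0.78 and -0.65 to 0.42. The scripts were tested on simulated data.

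Named were all 8 members in every comparison, pathway genes called (up to 5 per direction) or else the 2 of largest change with a mean of at least 50 counts, and the 3 genes most like each tested member. TLR3, TLR7, TLR8, ZBP1, AIM2, DHX9, TBK1, IKBKE, MYD88, the receptor chains, RSAD2, MX1, IFI44 and marker genes were named after their values were seen. The members and lists were chosen with earlier results of these data known.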

Additional observations from a re-analysis of the deposited data

How the results depend on the processing

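The number of members called kept its value in all but 4 of the alternatives run for the 16 comparisons. For NTC, syn-gRNA against plasmid guides, it was 0, 2 with GC offsets (MAVS and EIF2AK2) and 1 on the libraries of the contrast alone (MAVS). For KD, syn-gRNA against plasmid guides, it was 0 and 1 with GC offsets (EIF2AK2). For KD, agoshRNA against syn-gRNA, it was 0 and between 0 and 1 on leaving out each library, with MAVS called without agoshRNA KD B. The cause was not tested. Of 540 log2 values of the members under alternatives other than leaving out 1 library 23 changed sign, and of 720 on leaving out 1 library 129 did. None of the values that changed sign was called, and the largest had a main value of 0.60 in size. Among all genes the calls in NTC, syn-gRNA against plasmid guides, numbered 1027 in DESeq2, 467 in edgeR, 501 in limma-voom, 2462 with GC offsets and 1785 on its own libraries. In KD the same contrast gave 1078, 502, 531 and 2310 in that order of tools and offsets. For agoshRNA against syn-gRNA DESeq2 called 371 genes in NTC and 634 in KD, edgeR 16 and 192, limma-voom 16 and 227, and GC offsets 1395 and 1641, with 235 in KD on its own libraries. For agoshRNA against plasmid guides the counts were 14 in NTC and 16 in KD, edgeR gave 4 and 7, limma-voom 4 and 8, GC offsets 36 and 46, and the KD libraries alone 6. On leaving out each library the calls of syn-gRNA against plasmid guides ran from 188 to 1025 genes in NTC and 227 to 1275 in KD, those of agoshRNA against syn-gRNA from 43 to 487 and 107 to 2183, and those of agoshRNA against plasmid guides from 6 to 16 and 8 to 23. With the column letter as a replicate block, in KD against NTC and in the differences of the KD effect, 0 members were called in each comparison; among all genes 1 of 18513 was called in KD against NTC, syn-gRNA, and 0 in the others. Setups compared within an arm were not blocked, since nothing in the sources ties a letter across setups. The letters are those of the deposited columns and are not tied to the replicate numbers of the labels. IFIH1, OAS1 and OAS3 have too few counts for a test at this depth.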
